A study of Mus musculus with 10 samples.

Results

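The Notch pathway was followed in skeletal muscle through 10 genes, namely the receptors Notch1, Notch2, Notch3 and Notch4, the ligands Dll4, Jag1 and Jag2, and the transcription factor genes Hes1, Hey1 and Heyl, which are classical targets of the pathway. They were taken by symbol from the 54232 genes of the table, and all 10 were found once each. The list was chosen with earlier results of these data known. RNA had been sequenced from the gastrocnemius, a calf muscle, as the labels give it, of 5 mice homozygous for the desmin knock-out (Des -/-, B6J.129Sv-Destm1Cba/Cscl) and 5 wild-type mice (Des wt/wt) labelled with that strain as well, at 3 months of age. The knock-out is a constitutive, germline one, so that every cell of the animal lacks an intact Des gene. The study's text names the gastrocnemius together with the neighbouring plantaris. Its methods describe the wild-type animals as littermates and speak of RNA pooled per genotype, whereas the table gives the 10 mice separately, and each mouse was taken as 1 sample. The values are regularized log (rlog) values of DESeq2. These put library-size-scaled read counts of a gene on the log2 scale and shrink them towards that gene's mean, so differences are smaller than those of counts and the sequencing depth is unknown.

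In Notch signaling, a ligand of the Delta or Jagged family on one cell binds a Notch receptor on its neighbour. The receptor is then cut by ADAM proteases and γ-secretase, and its intracellular domain moves to the nucleus, where it joins RBPJ and Mastermind proteins to switch on Hes and Hey genes. In muscle the pathway is known for keeping satellite cells, the muscle stem cells, quiescent. In the vessels between the muscle fibers, Notch1, Notch4 and Dll4 are known from endothelial cells and Notch3 from pericytes and smooth muscle cells.

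Des itself, the targeted gene, had rlog values between 16.10 and 17.74 in wild-type and between 11.76 and 11.89 in desmin knock-out mice, and thus went with the genotype labels in all 10 mice (log2 difference -4.73; limma, adjusted p = 1.54e-07). Wild-type mouse 3 stood apart. Its values, summed after conversion from the log2 scale, came to 1.48 times the median over mice, compared with 0.949 to 1.06 times in the others, and it correlated least with its own group (mean r over genes of 0.982). Most values of the Notch genes and list medians given here that moved by over 1.5 times or changed sign without this mouse are given both ways. Wild-type values were also more spread than knock-out values, with a larger standard deviation for 82.9% of the 14289 tested genes and for 8 of the 10 Notch genes. The marker genes of muscle fibers, such as Acta1, Ckm and Myh4, were among the highest values in the table.

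Of the 10 genes, 1 was lower in desmin knock-out muscle at an adjusted p under 0.05 and 0 were higher (limma, Benjamini-Hochberg adjustment over all 14289 tested genes). Across all tested genes 5.99% were lower and 7.70% higher, so the share among the Notch genes was close to the background. The gene was the receptor gene Notch4. At an unadjusted p under 0.05 there were 3 genes lower (Notch3, Notch4 and Hey1) and 1 higher (Hes1). The mean was lower in desmin knock-out muscle for 7 genes and higher for 3, and the median log2 difference of the 10 was -0.13, compared with -0.0029 over all tested genes. Without wild-type mouse 3 these medians were -0.25 and -0.0045. None of the 10 genes lies on chromosome 1, which carries Des.

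**Figure D1:**
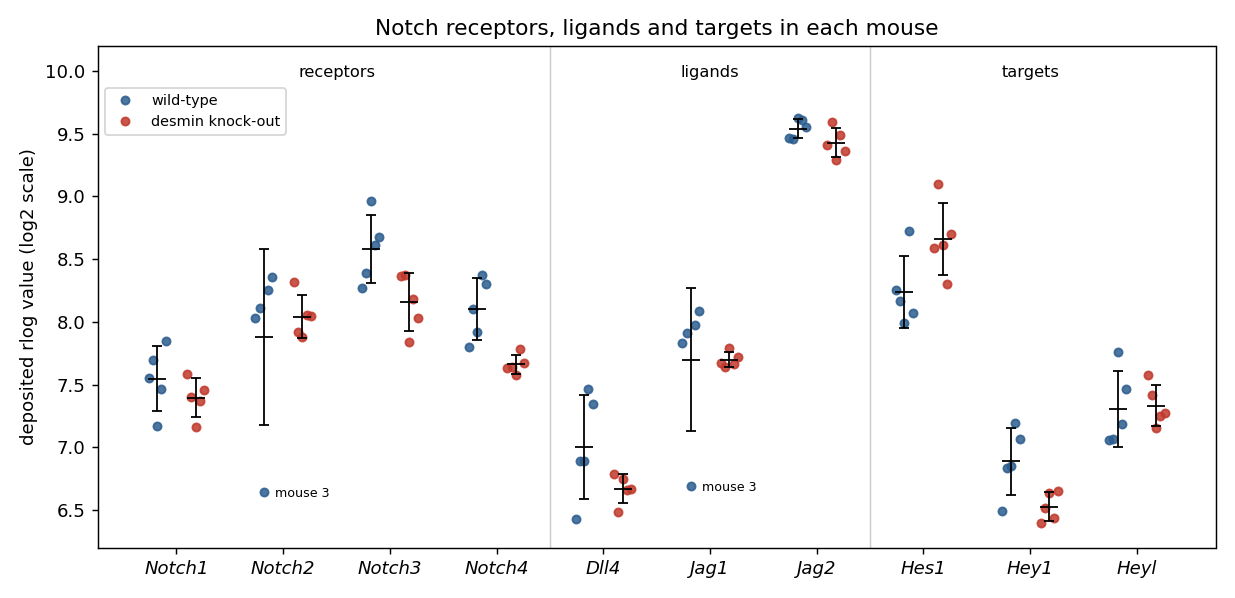
Deposited rlog values (log2 scale) of the 10 Notch genes in each mouse, blue for wild-type and red for desmin knock-out, with the mean and the standard deviation of 5 mice as black bars. The 5 knock-out values of Notch4 lie below all wild-type values, and wild-type mouse 3 lies far below the other mice for Notch2 (6.65) and Jag1 (6.69).

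Notch4 (ENSMUSG00000015468, forward strand of chromosome 17, 34564268 to 34588503 on GRCm38) encodes a receptor known mainly from endothelial cells. Its rlog values in the desmin knock-out mice 1 to 5 were 7.63, 7.64, 7.58, 7.79 and 7.68. In the wild-type mice 1 to 5 they were 7.80, 8.10, 7.92, 8.38 and 8.30. The genotypes did not overlap, although the highest knock-out value of 7.79 and the lowest wild-type value of 7.80 nearly touched. Such a full separation was found for 6.97% of all tested genes with the knock-out values below, and for 7.45% with them above. The log2 difference was -0.44 (standard error 0.12, 95% interval -0.70 to -0.18, limma, adjusted p = 0.0277), which is 73.8% of the wild-type level on the rlog scale. An exact permutation test (two-sided) gave p = 0.00794, the smallest that 5 mice against 5 allow. The call was lost when any one of knock-out mice 1, 2, 3 and 5 or wild-type mice 2, 4 and 5 was left out, with adjusted p from 0.0535 to 0.066 (limma) and log2 differences from -0.44 to -0.37. Leaving out wild-type mouse 3 instead gave -0.48 (limma, adjusted p = 0.0117).

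The stretch of 250 bases before the RefSeq start of Notch4 is shown because Notch4 was the gene that passed. It reaches into the gene as given above, which starts further upstream. It was taken from RefSeq (GRCm38.p6, chr17:34564045-34564294, forward strand) and is written 5′ to 3′, with matches to AGGAAG on either strand in capitals.
Notch4 promoter: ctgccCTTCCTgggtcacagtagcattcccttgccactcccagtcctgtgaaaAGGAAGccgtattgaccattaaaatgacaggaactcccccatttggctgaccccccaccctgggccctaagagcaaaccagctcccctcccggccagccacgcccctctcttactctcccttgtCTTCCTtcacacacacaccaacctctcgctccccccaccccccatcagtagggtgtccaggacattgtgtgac
AGGAAG is a form of the sequence bound by ETS factors, a family with well-known members in endothelial cells such as ERG, and was chosen after the values had been seen. It matched at 3 places, whose first bases lie 245, 197 and 73 bases before the start. At least 1 match was found in 29.5% of the 32851 promoter stretches of the same length, and in 1 of the 7 Notch genes for which a promoter was at hand. TGGGAA, the core of the site bound by RBPJ, was found on either strand in 21.6% of all these promoters and in 0 of the 7. Promoters of Hes1, Hey1 and Heyl were not analysed here.

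Another receptor of vessels, Notch3 (ENSMUSG00000038146, chromosome 17, 32120820 to 32166852), is known from pericytes and vascular smooth muscle. Knock-out mice 1 to 5 had rlog values of 8.37, 8.38, 7.84, 8.18 and 8.03. Wild-type mice 1 to 5 had 8.27, 8.39, 8.97, 8.61 and 8.68. The groups overlapped, with 3 knock-out values below all wild-type values and 4 wild-type values above all knock-out values. The log2 difference of -0.43 (standard error 0.15) was close to that of Notch4 but did not pass over all tested genes (limma, adjusted p = 0.0724). Without wild-type mouse 1 it was -0.50 and passed (limma, adjusted p = 0.0389). It was -0.33 without wild-type mouse 3 and -0.35 without knock-out mouse 3 (limma, adjusted p = 0.0988 and 0.169). Notch3 did not pass when any mouse other than wild-type mouse 1 was left out.

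Notch1 (ENSMUSG00000026923, chromosome 2, 26457903 to 26516663), which acts in endothelium and in satellite cells, ranged from 7.16 to 7.59 in desmin knock-out and from 7.17 to 7.85 in wild-type muscle. The log2 difference was -0.15 (95% interval -0.44 to 0.14, limma, adjusted p = 0.493), and the 2 ranges overlapped for most mice. Without wild-type mouse 3 it was -0.25 (limma, adjusted p = 0.162). With samples weighted by their agreement with the fit, the log2 difference was -0.25 and just passed (limma, adjusted p = 0.0476).

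Notch2 (ENSMUSG00000027878, chromosome 3, 98013527 to 98150361), a receptor with a broad pattern of expression that includes satellite cells, had values of 8.32, 7.92, 7.88, 8.05 and 8.05 in desmin knock-out mice 1 to 5. In the wild-type mice 1 to 5 they were 8.03, 8.11, 6.65, 8.26 and 8.36. Wild-type mouse 3 lay far below the other wild-type mice, whose mean was 8.19, and set the direction. The log2 difference was 0.16 with this mouse and -0.15 without it (limma, adjusted p = 0.725 and 0.414). Its 95% interval of -0.40 to 0.73 left room for changes in either direction.

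Among the ligands, Dll4 (ENSMUSG00000027314, chromosome 2, 119325784 to 119335962), the Delta ligand of arterial and sprouting endothelium, had values of 6.79, 6.48, 6.74, 6.66 and 6.66 in desmin knock-out mice 1 to 5. The wild-type mice 1 to 5 had 6.42, 6.89, 6.89, 7.46 and 7.35. In all, 4 wild-type mice lay above all knock-out mice and mouse 1 lay below them. Dll4 differed by -0.33 on the log2 scale (standard error 0.17, limma, adjusted p = 0.233). It was -0.48 (limma, adjusted p = 0.048) without wild-type mouse 1 and -0.22 (limma, adjusted p = 0.409) without wild-type mouse 4. Dll4 did not pass when any mouse other than wild-type mouse 1 was left out.

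Jag1 (ENSMUSG00000027276, chromosome 2, 137081456 to 137116644), a Jagged ligand of endothelium and smooth muscle, showed the smallest knock-out standard deviation relative to that of wild-type among the 10 genes. This held only with wild-type mouse 3 included. Values of 7.67, 7.64, 7.79, 7.66 and 7.72 were found in desmin knock-out mice 1 to 5. Wild-type mice 1 to 5 had 7.83, 7.91, 6.69, 7.97 and 8.08. Again 4 wild-type mice lay above all knock-out mice, but wild-type mouse 3 lay far below the others, whose mean was 7.95. The standard deviation was 0.06 in desmin knock-out and 0.57 in wild-type mice, and 0.11 in wild-type mice without mouse 3. On the log2 scale Jag1 differed by -0.0023 (limma, adjusted p = 0.996) with wild-type mouse 3 and -0.25 (limma, adjusted p = 0.0619) without it.

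Jag2 (ENSMUSG00000002799, chromosome 12, 112907819 to 112929776), the second Jagged ligand, had the steadiest values in wild-type muscle among the 10 genes. They ranged from 9.46 to 9.63 in wild-type and, lower in part, from 9.29 to 9.59 in the knock-out mice. The log2 difference was -0.11 (95% interval -0.30 to 0.08, limma, adjusted p = 0.436), with 3 knock-out values below all wild-type values.

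The 3 target genes did not share a direction. Hes1 (ENSMUSG00000022528, chromosome 16, 30064384 to 30067796), a basic helix-loop-helix repressor, had values of 8.59, 9.10, 8.61, 8.30 and 8.70 in desmin knock-out mice 1 to 5. Wild-type mice 1 to 5 had 8.26, 8.16, 7.99, 8.72 and 8.07. All wild-type values except that of mouse 4 lay below all knock-out values. The log2 difference of 0.42 (standard error 0.16) did not pass over all tested genes (limma, adjusted p = 0.106). It was 0.54 (limma, adjusted p = 0.0284) without wild-type mouse 4 and 0.31 (limma, adjusted p = 0.246) without knock-out mouse 2. Hes1 did not pass when any mouse other than wild-type mouse 4 was left out.

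Hey1 (ENSMUSG00000040289, chromosome 3, 8663359 to 8667256), a related repressor known from arterial endothelium, had values of 6.40, 6.52, 6.64, 6.44 and 6.65 in desmin knock-out mice 1 to 5. Wild-type mice 1 to 5 had 6.49, 6.83, 6.85, 7.19 and 7.07. As for Dll4, 4 wild-type mice lay above all knock-out mice and mouse 1 was the lowest wild-type mouse. Hey1 differed by -0.36 on the log2 scale (standard error 0.13, limma, adjusted p = 0.0949). It was -0.46 (limma, adjusted p = 0.0272) without wild-type mouse 1 and -0.28 (limma, adjusted p = 0.168) without wild-type mouse 4. Hey1 did not pass when any mouse other than wild-type mouse 1 was left out. Heyl (ENSMUSG00000032744, chromosome 4, 123233556 to 123249875), the Hey gene of smooth muscle and satellite cells, ranged from 7.16 to 7.57 in desmin knock-out and from 7.06 to 7.76 in wild-type muscle. Its log2 difference was 0.026 (95% interval -0.29 to 0.34, limma, adjusted p = 0.928), and the sign changed with the scaling (-0.017 with median centring). Without wild-type mouse 3 it was 0.14 (limma, adjusted p = 0.492).

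**Figure D2:**
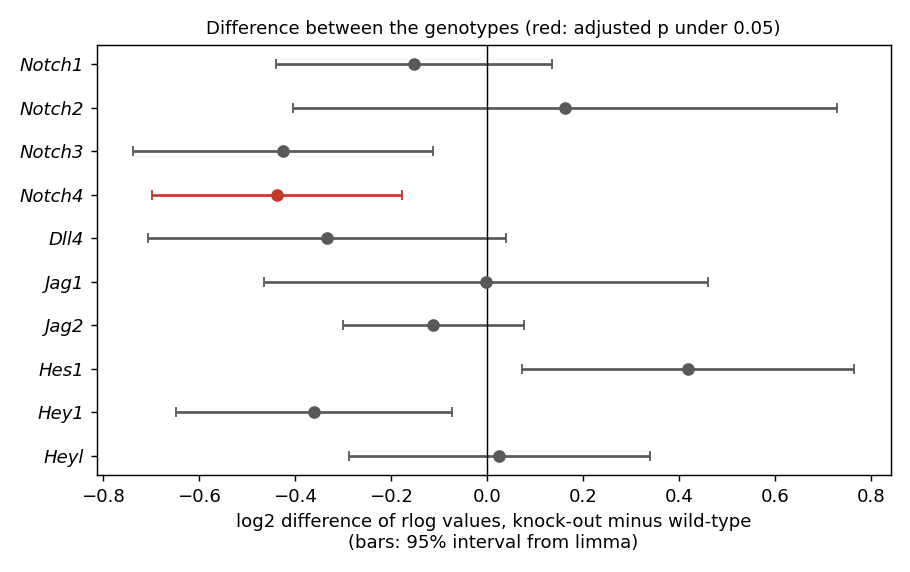
Log2 difference of the rlog values (knock-out minus wild-type) of the 10 Notch genes, with 95% intervals from limma. The interval of Notch4, in red, runs from -0.70 to -0.18, and that of Notch2 from -0.40 to 0.73 is the widest of the 10.

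Levels of the 10 genes were compared with each other per length, as the mean rlog value minus log2 of the exon length in kilobases. This length joins all annotated exons of a gene and can exceed that of its main transcript, which lowers the level. It was longest for Notch1, with 14232 bases. In wild-type muscle Hes1 had the highest level per length with 7.21, followed by Jag2 with 6.74 and Notch3 with 5.57. Hes1 and Jag2 differed by 0.47 ± 0.29 (SD, n = 5), and Jag2 and Notch3 by 1.17 ± 0.20 (SD, n = 5), in the same direction in all 5 wild-type mice. Notch3 exceeded the next gene, Hey1, by 0.39 ± 0.27 (SD, n = 5).

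Hey1 (5.18), Jag1 (5.16), Notch4 (5.09), Dll4 (5.06) and Heyl (4.95) followed at nearly 1 level, and neighbours in this order differed by 0.02 to 0.10, less than the spread of these differences between mice. Notch2 had 4.45 and Notch1, the lowest, had 3.72. Wild-type mouse 3, low for Jag1 and Notch2, set part of this order. Without it Jag1 (5.41) came before Hey1 (5.19), Dll4 exceeded Heyl by 0.24 ± 0.37 (SD, n = 4), and Heyl (4.84) and Notch2 (4.76) differed by 0.08 ± 0.08 (SD, n = 4) instead of 0.50 ± 0.94 (SD, n = 5).

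In desmin knock-out muscle Hes1 (7.63) and Jag2 (6.63) were again the highest and Notch1 (3.56) the lowest. As in wild-type muscle without mouse 3, Jag1 (5.15) stood above Notch4 (4.65), Dll4 (4.72) and Hey1 (4.82). The distance between Jag1 and Notch4 was 0.50 ± 0.12 (SD, n = 5) in desmin knock-out muscle. In wild-type muscle it was 0.07 ± 0.49 (SD, n = 5) with mouse 3, whose own distance was -0.76, and 0.27 ± 0.18 (SD, n = 4) without it. Among all tested genes, the wild-type levels per length lay between the 17.8th percentile for Notch1 and the 62.5th for Hes1.

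By the likeness of their values over the 10 mice, each taken relative to its own mean, the genes closest to Notch4 were Rarg, Card10 and Shmt1. Rarg, a retinoic acid receptor gene, differed from Notch4 by a root mean square of 0.0775, compared with a median of 0.347 over all tested genes. Card10 differed by 0.092 and Shmt1, an enzyme gene of folate metabolism, by 0.106. Their log2 differences between the genotypes were -0.45, -0.55 and -0.50. The likeness was taken over all 10 mice with the genotype difference left in, so it favoured genes that differed much as Notch4 did. Similar differences and distances below the median thus follow from choosing the closest genes and are no separate result. Whether these genes follow Notch4 within a genotype was not tested.

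Beyond these 10 genes, 67 further genes of the pathway were listed, of which 58 reached the expression limit (a mean of at least log2 of 10). At an adjusted p under 0.05, 3 of the 58 had risen and 4 had fallen in the knock-out (limma), again next to backgrounds of 7.70% and 5.99%. In the nuclear complex, 2 of 9 genes were higher. Maml2, a Mastermind coactivator, had 7.13 to 7.47 in desmin knock-out and 6.67 to 7.07 in wild-type mice (log2 difference 0.45, limma, adjusted p = 0.0168). Kat2b, an acetyltransferase recruited with it, had a log2 difference of 0.43 (limma, adjusted p = 0.036), and both genes separated the genotypes. Rbpj, the DNA-binding partner of all 4 receptors, had a log2 difference of 0.15 (limma, adjusted p = 0.29).

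Of the 10 corepressor genes, 2 were lower. Ctbp2 had 7.92 to 8.32 in desmin knock-out and 8.48 to 8.73 in wild-type mice (log2 difference -0.43, limma, adjusted p = 0.0121). Spen, whose product silences RBPJ targets in the absence of Notch, had a log2 difference of -0.41 (limma, adjusted p = 0.0198). Among the 10 genes of receptor cleavage, Furin, the convertase that cuts the receptors on their way to the membrane, was lower (log2 difference -0.37, limma, adjusted p = 0.0184), and the other 9, with Adam10, Adam17 and the γ-secretase subunits, did not pass.

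Of 9 tested genes that were listed as further targets, Hes6 was higher (log2 difference 0.47, limma, adjusted p = 0.00641). It had 8.80 to 9.08 in desmin knock-out and 8.34 to 8.64 in wild-type mice. Hes6 opposes Hes1 and is also known from differentiating myoblasts independently of Notch. Bhlhe40, which responds to many other signals too, was lower with a log2 difference of -0.36 (limma, adjusted p = 0.0285). None of the 5 receptor glycosylation genes passed (limma, with 2 of them at an unadjusted p under 0.05), although all 5 means were lower, with log2 differences from -0.38 for Lfng to -0.06 for Pofut1. Neither the 5 ligand ubiquitin ligase genes nor the 9 tested genes of receptor turnover and inhibitors held a gene that passed (limma, with 0 of the former and 2 of the latter at an unadjusted p under 0.05). Of the 5 other ligands only Dll1 reached the limit (log2 difference 0.10, limma, adjusted p = 0.78, and -0.07 without wild-type mouse 3), whereas Dll3, Dlk1, Dlk2 and Dner did not. Among the targets, Hes2, Hes3, Hes5 and Hes7 stayed below the limit, as did the inhibitor gene Dtx1. Without wild-type mouse 3, the 7 genes of the pathway lists that passed still passed. The list medians of the nuclear complex and of receptor cleavage moved from 0.15 to 0.018 and from -0.11 to -0.047. Those of the ubiquitin ligases (0.027 to -0.041) and of turnover and inhibitors (0.047 to -0.012) changed sign.

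**Figure D3:**
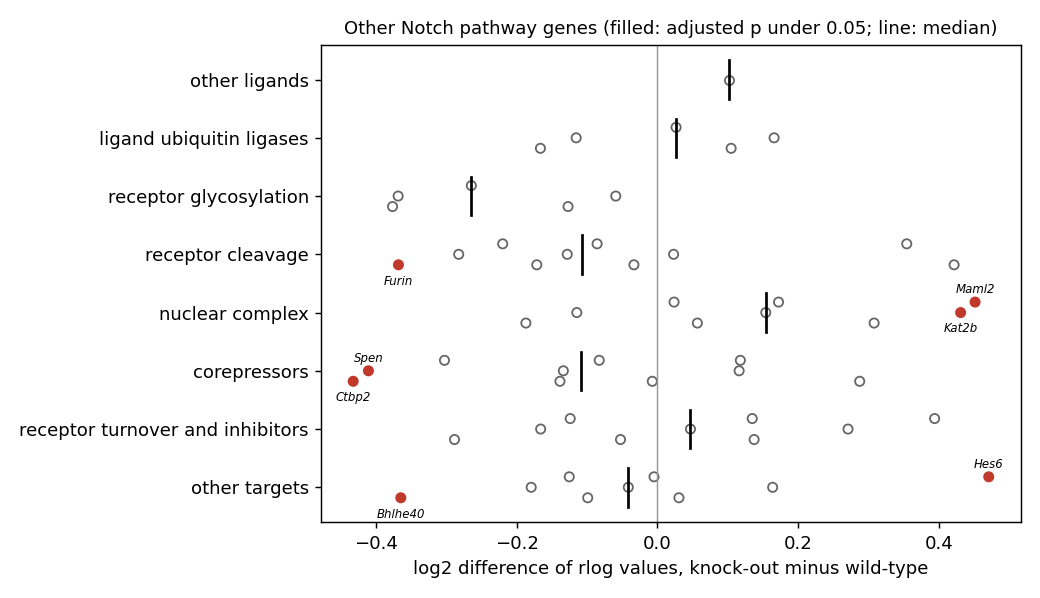
Log2 differences (knock-out minus wild-type) of the 58 tested genes of the Notch pathway outside the 10, by role, with filled points for an adjusted p under 0.05 and a line at each median. Maml2, Kat2b and Hes6 lie on the right, and Ctbp2, Spen, Furin and Bhlhe40 on the left.

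Since several of the 10 genes belong to vessels, markers of the cell types of muscle were set beside them. These lists were chosen with earlier results of these data known. Fewer cells of a type and less RNA per cell cannot be told apart in whole muscle. The means of all 14 endothelial markers were lower in the knock-out (median log2 difference -0.42). Of the 14, 7 passed as lower at an adjusted p under 0.05 (limma), next to 5.99% of all tested genes. Leaving out 1 mouse at a time gave 5 to 7, and 6 without wild-type mouse 3. Eng, a coreceptor for TGF-β family ligands, was lower with a log2 difference of -0.80 (8.77 to 9.29 in desmin knock-out and 9.62 to 10.26 in wild-type mice, limma, adjusted p = 0.0011). Flt1, a VEGF receptor gene, had a log2 difference of -0.59 (limma, adjusted p = 0.00133). The mean of the 14 markers lay between 8.61 and 8.97 in desmin knock-out mice and between 8.99 and 9.34 in wild-type mice. The ranges thus did not overlap but nearly touched.

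The 6 markers of arterial endothelium, where Dll4 and Hey1 are known to be expressed, had a median log2 difference of -0.17, and 0 of 6 passed (limma, with 1 of them at an unadjusted p under 0.05 and the lowest adjusted p, 0.131, for Gja4). Without wild-type mouse 3, Sox17 passed as lower (limma, adjusted p = 0.0307). Of the 9 pericyte and smooth muscle markers, Cspg4 was higher and Kcnj8 lower, with log2 differences of 1.02 and -0.53 (limma, adjusted p = 9.66e-05 and 0.0144). The median of this list was -0.24, and -0.14 without wild-type mouse 3.

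Of the 8 satellite cell markers, 1 was higher, Chodl with a log2 difference of 0.89 (limma, adjusted p = 0.00252), while Pax7, the defining marker, had a log2 difference of 0.015, and 0.088 without wild-type mouse 3. The median of the 8 was 0.25, and 0.10 without this mouse. Of the 7 markers of fibro-adipogenic progenitors, 1 was lower, Ly6a with -0.40 (limma, adjusted p = 0.00764), a gene that endothelial cells also express. Dpp4 joined it without wild-type mouse 3 (limma, adjusted p = 0.0428). None of the 7 macrophage and 5 Schwann cell markers passed (limma, with 0 of either list at an unadjusted p under 0.05), with list medians of 0.08 and 0.0089 (-0.0028 and 0.058 without wild-type mouse 3).

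The 6 myofiber markers were mixed. Myh4, the fast myosin heavy chain of type 2B fibers, was lower (log2 difference -0.71, limma, adjusted p = 0.036). Myh1, the fast myosin heavy chain of type 2X fibers, had a log2 difference of 0.58 (limma, adjusted p = 0.132), and without wild-type mouse 3 it passed as higher with 0.79 (limma, adjusted p = 0.00524). The median of the 6 was -0.41, and -0.24 without this mouse, which had the highest mean of these markers.

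**Figure D4:**
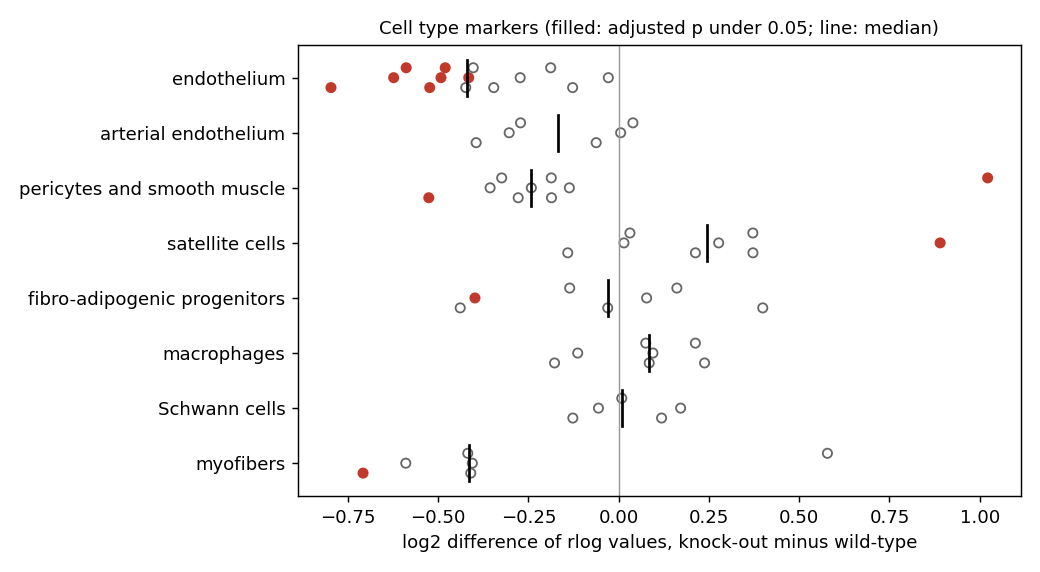
Log2 differences (knock-out minus wild-type) of cell type markers, with filled points for an adjusted p under 0.05 and a line at each median. All 14 endothelial markers lie left of 0, with a median of -0.42.

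Each Notch gene was then taken relative to the mean of the 14 endothelial markers of the same mouse. That mean differed by -0.41 (knock-out minus wild-type), so this step raised the difference of every gene by the same amount. A gene lower by about as much lands near 0 by arithmetic, whatever cells express it. Whether the Notch genes follow endothelial cells was not tested. On this scale, Notch4 ranged from -1.33 to -1.03 in desmin knock-out and from -1.38 to -0.85 in wild-type mice, and differed by -0.03 (standard error 0.14, limma, adjusted p = 0.848 over all genes on the same scale; exact permutation test, p = 0.802). Notch3 (-0.02), Dll4 (0.07) and Hey1 (0.05) also had differences near 0 on this scale (limma, adjusted p = 0.915, 0.696 and 0.789). The median of all tested genes was 0.40, and 54.3% of genes passed as higher and 0.987% as lower. Without wild-type mouse 3, Notch4 had -0.10, Notch3 0.06, Dll4 0.03 and Hey1 0.02, and the median of all tested genes was 0.38.

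The reference mattered for these 4 genes. Relative to the median in place of the mean of the endothelial markers, Notch4 had -0.13 and Notch3 -0.12 (limma, adjusted p = 0.519 and 0.591), where the median of all tested genes was 0.30. On this scale Notch3 had 0.0095 without wild-type mouse 3. The mean of the 9 pericyte and smooth muscle markers differed by -0.13 (knock-out minus wild-type). Of the 9, only Cspg4 had a higher mean in the knock-out, with a log2 difference of 1.02. It raised this reference, and a mean without it was not tested. Relative to the mean of the 9 pericyte and smooth muscle markers, the cell types from which Notch3 is known, Notch3 had -0.29 and Notch4 -0.30 (limma, adjusted p = 0.202 and 0.273). Dll4 had -0.20 and Hey1 -0.23 on that scale, and the median of all tested genes was 0.13, and 0.07 without wild-type mouse 3.

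Of the 10 genes, Hes1 and Heyl were higher relative to the mean of the endothelial markers at an adjusted p under 0.05 (limma), next to the 54.3% of all genes. Hes1 had -0.58 to 0.36 in desmin knock-out and -1.31 to -0.51 in wild-type mice, which came to a difference of 0.83 (standard error 0.19, limma, adjusted p = 0.00218; exact permutation test, p = 0.0159). Heyl had 0.43 (limma, adjusted p = 0.0201), close to the median of all tested genes. Without wild-type mouse 3 Heyl had 0.53 (limma, adjusted p = 0.00396), where the median of all tested genes was 0.38. Relative to the median of the endothelial markers, Heyl had 0.33 and did not pass (limma, adjusted p = 0.157). On that scale it had 0.48 without wild-type mouse 3 and passed (limma, adjusted p = 0.0263). Relative to the pericyte and smooth muscle markers, Cspg4 included, Hes1 had 0.55 and Heyl 0.16 and neither passed (limma, adjusted p = 0.0644 and 0.499).

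The differences of Notch2, Jag1 and Notch1 relative to the mean of the endothelial markers were smaller without wild-type mouse 3. Notch2 had 0.57 (limma, adjusted p = 0.0541), with all 5 knock-out values above all wild-type values, as for 29.3% of tested genes. Without this mouse Notch2 had 0.24 and the genotypes still did not overlap (limma, adjusted p = 0.12; exact permutation test, p = 0.00794). Jag1 went from 0.41 to 0.13 and Notch1 from 0.26 to 0.14. Jag2 had 0.29 and 0.30.

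**Figure D5:**
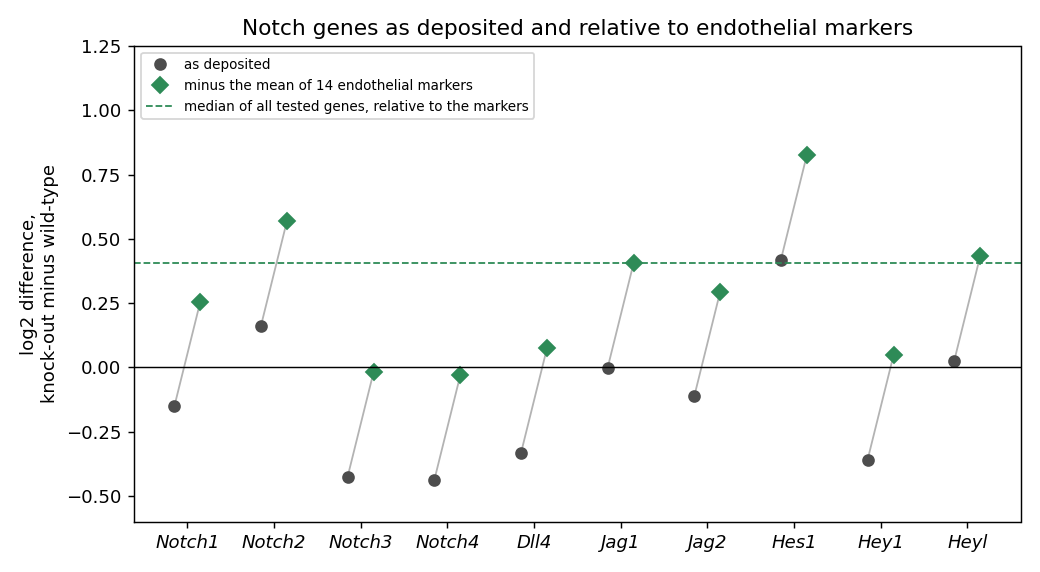
Log2 differences (knock-out minus wild-type) of the 10 Notch genes as deposited (circles) and relative to the mean of 14 endothelial markers of the same mouse (diamonds), with the median of all tested genes on the relative scale (0.40) as a dashed line. Notch3, Notch4, Dll4 and Hey1 lie near 0 on the relative scale, and Hes1 lies highest with 0.83. Wild-type mouse 3 is included, without which Jag1 and Notch1 had 0.13 and 0.14.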

How the data were processed

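RNA of gastrocnemius muscle of 5 desmin knock-out and 5 wild-type mice was sequenced from libraries of a stranded mRNA kit. The submitters' processing notes name cutadapt 2.5, STAR 2.5.4a, Subread 1.6.1 with featureCounts, DESeq2 and GRCm38. The authors deposited rlog values on the log2 scale; the settings of the transformation and whether reads were counted by strand are not given in the sources used here. Exons of Notch1, Notch2, Notch3 and Dll4 overlap those of other annotated genes, whose mean values were at most 3.79 (0610009E02Rik, antisense to Notch1).

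The limit on the mean rlog value was log2 of 10, and genes above it entered limma 3.58.1 under R 4.3.3 (genotype only, variance prior following the mean, two-sided, Benjamini-Hochberg over 14289 genes). Single values were tested with exact permutation tests in Python 3.11.15. Symbols of 54079 genes and exon lengths came from GENCODE M21 and promoters from RefSeq. The fit was tested on simulated data. Labels do not say that mice came from separate litters, and p-values measure the spread between these mice.

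Members and lists were chosen with earlier results of these data known. Named were the 10 members, Des, genes of each pathway list with an adjusted p under 0.05 (up to 3), up to 2 genes of smallest p per marker list, and the 3 genes most like a member that passed. Other genes, given as examples of what did not pass, were chosen after their values were seen. Alternatives were other expression limits, quantile normalization, median centring, sample weights (arrayWeights), a constant variance prior, the replicate block, each mouse left out, a stricter threshold and other marker references. The fits of all genes relative to endothelial and to pericyte and smooth muscle markers, the endothelial counts without each mouse, and the levels and lists without wild-type mouse 3 were added after the data had been seen.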

Additional observations from a re-analysis of the deposited data

Results flagged for a closer look

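In 22 groups of 5 mice (each genotype for Des and each of the 10 Notch genes), 1 mouse was separated from the other mice of its genotype by a wide gap in 3 groups. Chance alone flags about 1 group in 20, here 1.1. In all 3 it was wild-type mouse 3, with the highest wild-type value of Des (17.74) and the lowest wild-type values of Notch2 (6.65) and Jag1 (6.69).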

How the results depend on the processing

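Over 18 alternatives the log2 difference of Notch4 stayed between -0.51 and -0.34 (adjusted p from 0.00946 to 0.066, limma). The number of Notch genes lower was 2 with sample weights, 0 at an adjusted p under 0.01 and 0 to 4 with 1 mouse left out, and 0 to 1 were higher with 1 mouse left out. Without wild-type mouse 1 the 4 were Notch3, Notch4, Dll4 and Hey1, and 1905 of all tested genes were called in either direction. Of the other pathway genes, 5 were higher and 10 lower with sample weights, and 1 and 0 at an adjusted p under 0.01. With 1 mouse left out, 1 to 4 were higher and 1 to 4 lower. All tested genes called numbered 4220 with sample weights and 994 at an adjusted p under 0.01, instead of 1956. With 1 mouse left out they numbered 1399 to 2494.

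The replicate number as a block left 1 Notch gene lower and 0 higher, and 2 pathway genes higher and 1 lower. The numbers were not taken to pair the mice, since the deviations of same-numbered mice from their group means correlated between -0.219 and 0.0673.

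The sign changed for Heyl with median centring (-0.017) and quantile normalization (-0.043), and with 1 mouse left out it ranged from -0.036 to 0.14. For Jag1 the range was -0.25 to 0.094, and for Notch2 -0.15 to 0.28, with -0.052 under sample weights. Relative to the median of endothelial markers, Dll4 had -0.030 and Hey1 -0.056, and Hey1 had -0.031 without wild-type mouse 3. Relative to the pericyte and smooth muscle markers, Notch1 had -0.018 (-0.17 without wild-type mouse 3), Dll4 -0.20 and Hey1 -0.23. On that scale, whose reference Cspg4 raised, Notch3 (-0.29) and Notch4 (-0.30) were further below 0 than relative to endothelial markers. Relative to endothelial markers with 1 mouse left out, Notch3 ranged from -0.089 to 0.058, Notch4 from -0.097 to 0.036, Dll4 from -0.015 to 0.19 and Hey1 from -0.030 to 0.12. The cause of these changes was not tested. Des kept its direction and its side of the threshold in all 18 alternatives, from -4.85 to -4.43. The depth is unknown, so counting error could not be given.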
